A study of Citrus maxima with 6 samples.

Results

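The genes described here are the class III peroxidases and laccases of the pomelo genome, as far as the deposited annotation names them. A gene was a member when the name of its best Arabidopsis hit contained "peroxidase superfamily protein" or "laccase", in any case, and 104 of the 30123 annotated genes met this rule, 81 peroxidases and 23 laccases. RNA was taken from the pulp of ripe fruits of 2 pomelos, one with red sarcocarp (called Red, Citrus maxima Merr. var. Tubtim Siam) and one with white (called White, Citrus maxima (Burm.) Osbeck), with 3 biological repeats of each and no treatment. Each repeat pooled the sarcocarp of several fruits from orchards of the same region, and each group is a single cultivar, so what is particular to the cultivar and what is particular to these trees cannot be told apart. Expression was measured as FPKM, fragments per kilobase of transcript relative to the mapped fragments of the library, which can be compared between genes because it is set per length.

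Class III peroxidases are secreted haem enzymes that use hydrogen peroxide to oxidise phenols in the cell wall, and laccases are secreted copper enzymes that oxidise similar phenols with oxygen. Both are known for joining monolignols, the alcohols made by the phenylpropanoid pathway, into lignin in the walls of vessels and fibres. Peroxidases also cross-link wall proteins and ferulate, and they can produce as well as consume reactive oxygen. Both are large gene families whose copies often lie side by side, and reads from near-identical copies cannot be assigned with certainty, so the values of closely related members are uncertain.

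The family name did not match the annotated best hit in every case. The best hit of 4 members, Cg2g006060, Cg2g006070, Cg2g006080 and Cg2g006090, was AT3G01420, an alpha-dioxygenase of fatty acids that shares the superfamily name but is not a class III peroxidase, and all 4 were listed at 0 FPKM in every library. Conversely, 8 genes named "peroxidase 2" or "Peroxidase family protein" fell outside the rule and are not members.

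In the summed FPKM per library, which ran from 812335 to 835575, and in the number of genes above 0, from 15920 to 16250, no library stood apart. FPKM are scaled to the mapped fragments of each library, so near-equal sums do not show equal depth. Pearson's r across the 14158 expressed genes was 0.958 to 0.964 within and 0.833 to 0.855 between cultivars, and as a description across genes it carries no p. Markers of other tissues were also summed. Summed over 5 genes, the seed storage and oil body markers held 5.03 to 24.8 FPKM in the Red libraries, highest in Red replicate 3, and 0.09 to 0.25 FPKM in the White ones. The 4 green tissue markers summed to 36.9 to 53.3 FPKM in Red and 47.7 to 65.5 FPKM in White.

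Most of the family was little expressed or listed at 0 in ripe pulp. A mean of at least 1 FPKM in Red or in White, taken as expressed, was reached by 22 of the 104 members (21.2%), 19 peroxidases (23.5%) and 3 laccases (13.0%), against 47.0% of all annotated genes. Of the 82 others, 27 had a value above 0 in at least 1 library, and 55, made up of 46 peroxidases and 9 laccases, were listed at 0 in all 6. An FPKM of 0 does not show that no read was found. For 8 of the 55, the authors' mean normalized count, made from separately counted reads, was above 0, and its highest value was 2.62, for Cg2g006060. Just inside the limit lay Cg3g018770 with a mean of 1.01 FPKM in White, and just outside it Cg2g006540 with 0.863 FPKM in Red and Cg4g007310 with 0.787 FPKM in White. Because a gene could enter through the cultivar where it was high, the 22 genes are described one by one.

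The 81 peroxidases had 37 different best hits and the 23 laccases 9. The largest group was the 21 genes that share the best hit AT5G05340, known in Arabidopsis as PRX52, a peroxidase of stem lignin. Of these, 3 were expressed and 16 were listed at 0 in all libraries. The 8 laccases whose best hit was AT5G60020 (LAC17, which polymerises lignin in Arabidopsis stems) held no expressed gene. Gene IDs of this genome run in steps of 10, and 43 members sat in 16 unbroken runs of neighbouring IDs. The longest run, Cg9g002380 to Cg9g002430, held 6 genes with the hit AT5G05340, all listed at 0 in every library. In 12 of the 16 runs no member was expressed. Of the 22 expressed members, 17 lay outside such runs. The plot of best hits shows these groups.

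**Figure D1:**
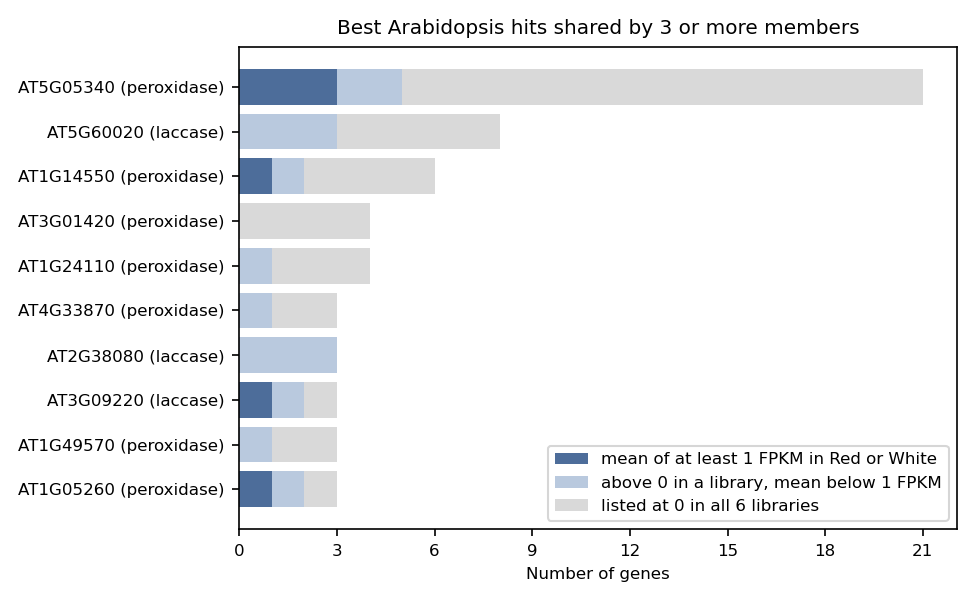
Number of genes (x axis) for each best Arabidopsis hit shared by 3 or more members (y axis), split by whether the gene reached a mean of 1 FPKM in Red or White, had a lower value above 0, or was listed at 0 in all 6 libraries. In the largest group, AT5G05340, 3 of 21 genes were expressed.

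Expression was compared between the cultivars with limma on log2(FPKM + 0.1) over the 14158 expressed genes, with Benjamini-Hochberg adjustment over all of them. Genes were called where the log2 fold change, Red over White, reached 2 in either direction and the adjusted p was 0.01 or less. Changes of low genes are understated on this scale. By both thresholds 1 expressed member was higher in Red, against a background of 3.11% of all genes tested, and 6 were lower, against a background of 3.65%. The 6 lower genes were 4 of the 19 peroxidases and 2 of the 3 laccases. Of the 22 expressed members, 13 reached 1 FPKM in both cultivars, 3 only in Red and 6 only in White. The lower genes Cg1g004840, Cg3g018770, Cg6g005910 and Cg7g002640 entered only through White, where they were high. The counts are therefore no result about the family. With the adjusted p alone, 2 members were higher and 8 lower, against 13.4% and 14.1% of all genes. The 3 libraries of a cultivar did not overlap those of the other in 16 of the 22 genes, against 57.7% of all genes, in either direction. White was higher in 12 of the 16, and the share of all genes was not split by direction. Pulp is a mixed tissue, and in bulk RNA fewer cells of a type and less RNA per cell cannot be told apart.

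**Figure D2:**
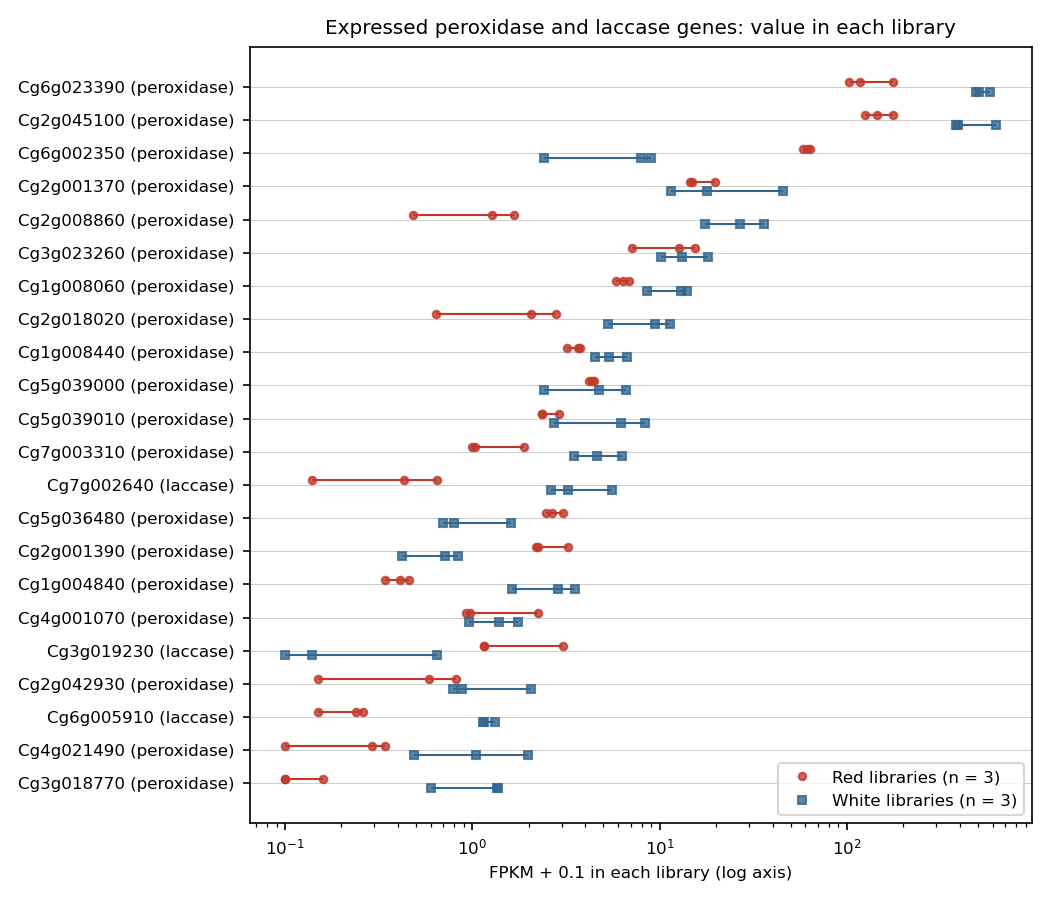
FPKM + 0.1 of each of the 22 expressed members in each library, on a log axis. Red circles are the 3 Red and blue squares the 3 White libraries, lines join the lowest and highest library of a cultivar, and genes are ordered by their mean. Cg6g023390 and Cg2g045100 stand above the rest in all libraries, and Cg6g002350 is the third by mean.

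By the mean over all 6 libraries 3 peroxidases stood highest, and 2 of these made up most of the peroxidase FPKM in either cultivar. Cg6g023390, with the best hit AT5G40150, had 117, 102 and 175 FPKM in Red replicates 1 to 3 and 581, 485 and 508 FPKM in the White replicates. Every White library lay far above every Red library. The log2 fold change was -2.03 (SE 0.20, 95% confidence interval -2.50 to -1.57, adjusted p = 0.000345), just past the fold threshold. The call was lost without Red replicate 1 (-1.97), Red replicate 2 (-1.87) or White replicate 1 (-1.96) and with quantile normalization (-1.99), although the adjusted p stayed at or below 0.00285 in all 19 alternative settings.

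Cg2g045100, with the best hit AT4G21960, had 145, 124 and 176 FPKM in the Red libraries and 383, 389 and 627 FPKM in the White libraries. The cultivars did not overlap, and White replicate 3 was the highest. Its log2 fold change of -1.63 (SE 0.22, 95% confidence interval -2.13 to -1.12, adjusted p = 0.00119) passed the test but not the fold threshold, so the gene counts among those past the adjusted p alone. It also had the highest authors' mean normalized count of all members, 11619.

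The peroxidase with the third highest mean over the 6 libraries ran the other way. Cg6g002350, with the best hit AT2G37130, had 57.8, 63.0 and 60.9 FPKM in the Red libraries and 7.87, 2.32 and 8.90 FPKM in the White libraries. The coefficient of variation was 4.28% among the Red and 55.6% among the White libraries, and all Red values were far above all White ones. The log2 fold change was 3.44 (SE 0.46, adjusted p = 0.00122), a 10.9-fold difference, and the gene kept its call in all 19 settings. In the settings that only loosened the thresholds the call could not be lost. Cg6g002350 was the single member called higher in Red. The other member with this best hit, Cg1g009400, had 0.06, 0.21 and 0.40 FPKM in White and 0 in every Red library, below the limit for testing.

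Summed over the 81 peroxidases, the libraries held 378, 348 and 468 FPKM in Red and 1077, 978 and 1286 FPKM in White, on average 2.80 times as much in White. The 2 highest genes made up 65.0% to 75.1% of this sum in the Red and 88.3% to 89.5% in the White libraries. Without them the sum of the other 79 genes was 118 ± 3.12 FPKM in Red and 122 ± 24.9 FPKM in White (SD, n = 3), with overlapping libraries. In White, Cg6g002350 (mean 6.36 FPKM) lay below Cg2g008860, Cg2g001370, Cg3g023260, Cg1g008060 and Cg2g018020. It alone accounted for 15.2% of the Red and 0.571% of the White mean sum, and without it as well the remaining 78 genes held 57.5 ± 1.64 FPKM in Red and 116 ± 22.4 FPKM in White (SD, n = 3), without overlap. The ratio of White to Red was thus 2.80 over all peroxidases, 1.04 without the 2 highest and 2.02 without the 3 highest.

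**Figure D3:**
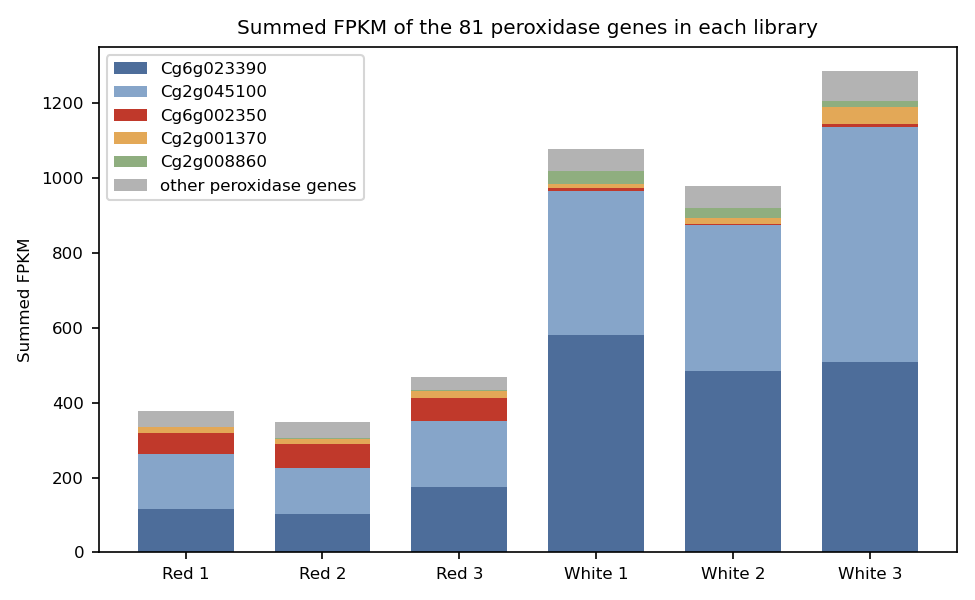
Summed FPKM (y axis) of the 81 peroxidase genes in each library (x axis), with the 5 genes of highest mean drawn apart and all others in grey. The White bars reach 978 to 1286 FPKM and the Red bars 348 to 468 FPKM, and Cg6g002350 (red) is visible mainly in the Red libraries.

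Several of the less abundant peroxidases have best hits that are known for lignification in Arabidopsis. Among the 3 expressed genes with the hit AT5G05340 (PRX52), Cg2g008860 had the largest difference of all members. It had 0.38, 1.57 and 1.17 FPKM in the Red libraries and 35.8, 26.6 and 17.3 FPKM in the White libraries. All White libraries lay far above all Red ones, although they differed among themselves. Its log2 fold change was -4.67 (SE 0.48, 95% confidence interval -5.81 to -3.53, adjusted p = 0.000431), a 25.4-fold difference, and it was called in all 19 settings. In the settings that only loosened the thresholds the call could not be lost.

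The other 2 expressed genes of this group were also lower in Red but by less. Cg7g003310 had 0.93, 1.78 and 0.89 FPKM in Red and 3.38, 4.54 and 6.19 FPKM in White, without overlap. Its log2 fold change was -1.91 (SE 0.34, adjusted p = 0.00391), short of the fold threshold, which it passed without Red replicate 2 (-2.21) or White replicate 1 (-2.12). Cg1g008060 had 6.72, 6.29 and 5.72 FPKM in Red and 13.8, 8.41 and 12.9 FPKM in White, and its log2 fold change of -0.87 (SE 0.20, adjusted p = 0.0113) did not pass. A further gene with this hit, Cg2g006540, stayed below the expression limit with 1.45, 0.90 and 0.24 FPKM in Red and 0.44, 0 and 0.20 FPKM in White. The 3 expressed copies therefore had differences of 1.82-, 3.76- and 25.4-fold in the same direction.

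Cg1g004840, the single gene with the best hit AT5G66390 (PRX72, needed for normal lignin in Arabidopsis stems), had 0.24, 0.36 and 0.31 FPKM in Red and 2.76, 1.52 and 3.44 FPKM in White. Every White library was above every Red one. The log2 fold change was -2.67 (SE 0.39, adjusted p = 0.00174). It was smaller, -1.88 with a pseudocount of 0.5 and -1.42 with 1, where the fold threshold was no longer met.

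Cg1g008440, the single gene with the best hit AT2G22420 (PRX17, a peroxidase linked to lignified tissue in Arabidopsis), had 3.11, 3.58 and 3.66 FPKM in Red and 6.55, 5.23 and 4.42 FPKM in White. The libraries did not overlap, but the log2 fold change of -0.62 (SE 0.19, adjusted p = 0.0311) passed neither threshold. Cg4g007310, with the best hit AT2G41480 (PRX25, likewise linked to stem lignin), was below the limit, with 0.07, 0 and 0 FPKM in Red and 1.09, 0.20 and 1.07 FPKM in White. Both genes with the hit AT5G42180 (PRX64, of the Casparian strip) stayed at or below 0.27 FPKM in every library.

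The laccases were expressed at a low level throughout, with 2.13, 4.68 and 1.73 FPKM summed over all 23 genes in the Red libraries and 10.7, 6.49 and 6.93 FPKM in the White libraries. The sum was 2.83 times as high in White, and the libraries did not overlap. Cg7g002640, named laccase 5, had the highest mean over the 6 libraries and in White but made up only 10.8% of the Red mean sum, with 0.04, 0.55 and 0.33 FPKM in Red and 5.43, 3.13 and 2.52 FPKM in White. Its log2 fold change was -3.41 (SE 0.61, adjusted p = 0.00412). Without White replicate 1, White replicate 2 or White replicate 3 the adjusted p was 0.0184, 0.0162 and 0.0116 and the call was lost, and over the 19 settings it ran from 0.00184 to 0.0184. The call was also lost with a pseudocount of 0.01 (adjusted p = 0.0105) or 1 (log2 fold change -1.82) and with a replicate block (adjusted p = 0.0141).

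Cg6g005910, named laccase 7, had 0.16, 0.14 and 0.05 FPKM in Red and 1.04, 1.06 and 1.22 FPKM in White. The White values were close to one another and the Red values at about the size of the pseudocount, and the log2 fold change was -2.51 (SE 0.47, adjusted p = 0.00471). The call was lost without Red replicate 1 or any 1 of the White replicates, with adjusted p between 0.0108 and 0.0184 (0.000907 to 0.0227 over the 18 settings that tested it), and with a pseudocount of 0.5 (-1.38) or 1 (-0.92). A replicate block also removed the call of Cg6g005910 (adjusted p = 0.0227). Its neighbour in the ID order, Cg6g005920, shares the best hit AT3G09220 and had 0.05, 0.12 and 0.06 FPKM in Red and 1.18, 0.46 and 0.34 FPKM in White. It stayed below the limit, but its Red and White libraries did not overlap either.

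The third expressed laccase had higher values in Red and made up 59.0% of the Red laccase mean sum. Cg3g019230 has the best hit AT5G48100 (LAC15, also called TT10, which oxidises flavonoids to brown pigments in the Arabidopsis seed coat). It had 1.05, 2.93 and 1.06 FPKM in Red and 0.04, 0.55 and 0 FPKM in White. The libraries did not overlap, but White replicate 2 and Red replicate 2 stood above their fellows. The log2 fold change of 2.93 (SE 0.81, 95% confidence interval 1.01 to 4.85, adjusted p = 0.0233) did not pass, and it did so without White replicate 2 (3.75, adjusted p = 0.00721, against 0.00721 to 0.0837 over the 18 settings that tested it). The authors, with DESeq2 on counts and the same thresholds, counted this gene among their differentially expressed genes. The seed markers were also higher in Red. The storage protein genes Cg9g008230 and Cg9g008240 had 2.96, 2.61 and 10.6 FPKM and 1.91, 1.47 and 12.3 FPKM in Red replicates 1 to 3, and at most 0.19 FPKM in White. Their highest library was Red replicate 3, whereas that of Cg3g019230 was Red replicate 2, and the part of seed tissue in the laccase value was not tested.

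Next in Red stood Cg8g024780, named laccase 3, which stayed below the limit with 0.79, 0.66 and 0.15 FPKM in Red and 0.10, 0.49 and 0.42 FPKM in White. Its cultivars overlapped, and it made up 18.7% of the Red and 4.18% of the White laccase mean sum.

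The laccases whose Arabidopsis hits polymerise lignin in vessels and fibres were low. With the best hit AT2G38080 (LAC4), Cg6g006410 had 0, 0.03 and 0.05 FPKM in Red and 1.59, 0.14 and 0.21 FPKM in White, and Cg7g000950 was listed at 0 in Red with 0.65, 0.37 and 0.07 FPKM in White. The third, Cg8g023740, had a single value above 0, of 0.04 FPKM. Of the LAC11 hits, known for lignin as well, Cg1g004420 had 0.04, 0.25 and 0.03 FPKM in Red and 0.49, 0.04 and 1.32 FPKM in White. When the limit on FPKM was dropped, the 27 members below it with a value above 0 were tested by limma. Both thresholds were passed by 0 of them, and 1 was higher and 6 lower at an unadjusted p under 0.05. In the main fit that cutoff was passed by 27.2% and 26.6% of the 14158 expressed genes. The fit without the limit covered 18220 genes, and its own share was not computed, so the 2 are not alike. The 55 listed at 0 were not tested. The White library with the highest value of both Cg6g006410 and Cg7g000950 was White replicate 1. Cellulose synthase genes of xylem walls were also higher in White than in Red. Cg4g023980 and Cg5g033420, with the hit CESA7, and Cg2g043600, with the hit CESA8, were at 0.04 FPKM or less in every Red library and at 1.83, 1.18 and 0.86 FPKM in White replicate 1, their highest library too. Cg4g023980 was itself called lower in Red (log2 fold change -3.21, SE 0.56, adjusted p = 0.00362). The protease gene Cg8g000260, with the hit XCP1, was also highest in White replicate 1. It had 0.5, 0.97 and 0.66 FPKM in Red and 3.41, 0.64 and 1.69 FPKM in White, with overlapping libraries. Other xylem markers had other patterns. The protease gene Cg3g025670, with the hit XCP1, was at 0 in Red and peaked in White replicate 3, with 0.18, 0.20 and 1.64 FPKM in White. The regulator gene Cg3g019470, with the hit VND7, had 0.22, 0.38 and 1.27 FPKM in Red and 0 in White. The protease gene Cg8g000170, with the hit XCP2, had 24.5, 15.1 and 20.5 FPKM in Red and 10.1, 5.47 and 15.1 FPKM in White. Of the 12 xylem marker genes 3 were expressed and 5 were listed at 0 throughout, and the 12 summed to 16.5 to 25.3 FPKM in Red and 8.20 to 19.9 FPKM in White. The part of vascular tissue in the laccase and peroxidase values was not tested.

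**Figure D4:**
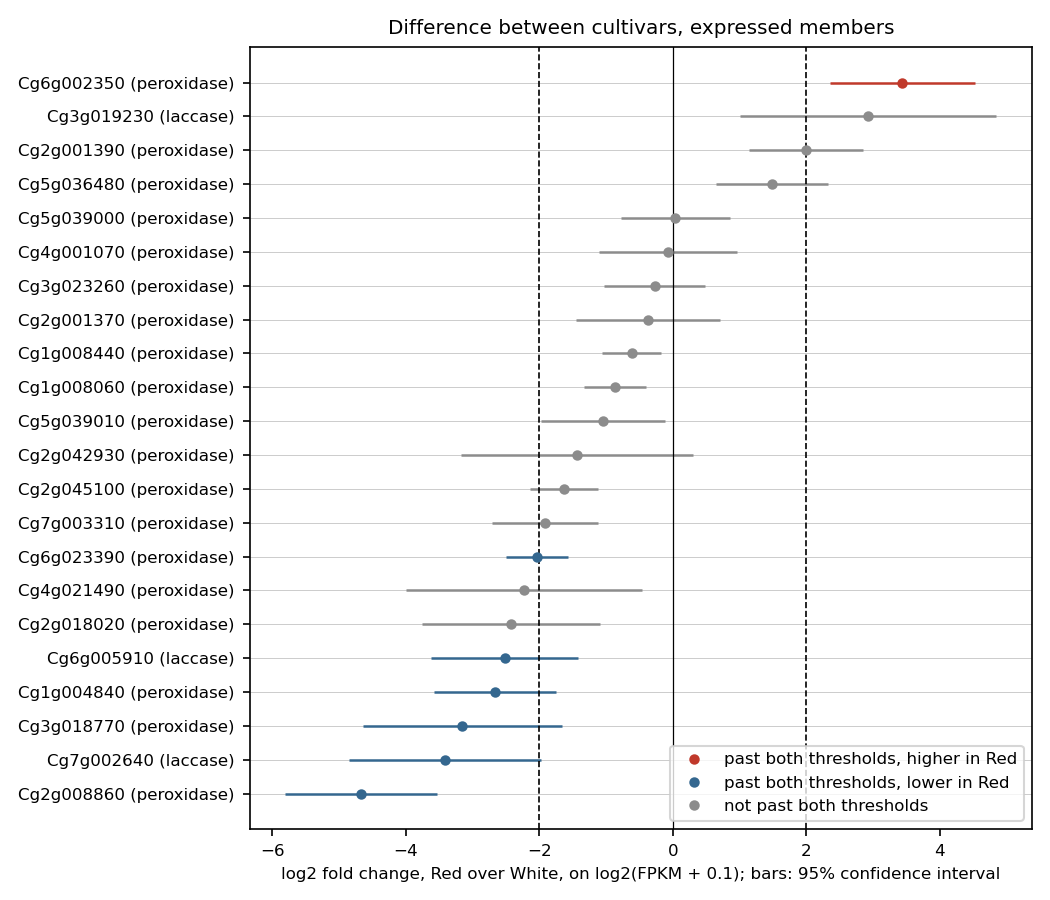
Log2 fold change, Red over White, of the 22 expressed members (x axis) with its 95% confidence interval, ordered by size. Dashed lines mark the fold threshold of 2 in each direction. 1 gene past both thresholds lies on the right (red) and 6 lie on the left (blue), from -2.03 for Cg6g023390 to -4.67 for Cg2g008860.

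The remaining peroxidases were low or had replicates that spread widely. Cg3g018770, with the best hit AT1G71695, had 0, 0.06 and 0 FPKM in Red and 0.50, 1.27 and 1.26 FPKM in White. It was called lower (log2 fold change -3.15, SE 0.63, adjusted p = 0.00660), but 2 of its Red values were 0, its authors' mean normalized count was 10.3, and the call was lost when any 1 of the Red replicates was left out, with adjusted p of 0.0183, 0.0109 and 0.0131 without replicates 1 to 3 and 0.00211 to 0.0233 over the 16 settings that tested it. The call was also lost with a pseudocount of 0.5 (log2 fold change -1.49) or 1 (-0.95) and with a replicate block (adjusted p = 0.0233). Without White replicate 2 or White replicate 3, or with the limit set on the mean over 6 libraries, the gene fell below 1 FPKM and was not tested. Cg2g018020, with the best hit AT3G21770, had 2.71, 0.54 and 1.95 FPKM in Red and 9.30, 5.20 and 11.3 FPKM in White. Its log2 fold change of -2.42 (SE 0.56, adjusted p = 0.0119) narrowly missed the threshold on p. Its neighbour in the ID order, Cg2g018030, was listed at 0 in all libraries. Cg4g021490, with the best hit AT2G18980, had 0.19, 0 and 0.24 FPKM in Red and 0.95, 1.87 and 0.39 FPKM in White (log2 fold change -2.23, SE 0.75, adjusted p = 0.0460).

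Higher values in Red were found for 2 further peroxidases besides Cg6g002350. Cg2g001390, with the best hit AT3G32980, had 3.13, 2.09 and 2.14 FPKM in Red and 0.32, 0.74 and 0.61 FPKM in White. Its log2 fold change of 1.99 (SE 0.36, adjusted p = 0.00424) lay just below the fold threshold. The gene was past both thresholds without White replicate 2 (2.20), with a pseudocount of 0.01 (2.18) and with quantile normalization (2.13). Over the 19 settings the log2 fold change ran from 1.15 to 2.20. Cg5g036480, with the best hit AT1G05260 (PRX3 or RCI3, a cold-induced peroxidase of Arabidopsis), had 2.95, 2.55 and 2.36 FPKM in Red and 0.60, 0.70 and 1.51 FPKM in White. The libraries did not overlap, but the log2 fold change of 1.49 (SE 0.36, adjusted p = 0.0135) missed both thresholds.

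Cg2g001390 lies in a stretch of IDs that is rich in peroxidases and whose members differed in direction. Cg2g001370, 2 IDs before it, had the next highest mean over the 6 libraries after the 3 peroxidases above. It had 14.5, 14.8 and 19.7 FPKM in Red and 11.3, 17.7 and 45.2 FPKM in White, where its mean was below that of Cg2g008860. Its cultivars overlapped, and the log2 fold change of -0.37 (SE 0.46, 95% confidence interval -1.45 to 0.71, adjusted p = 0.54) turned to 0.19 without White replicate 3. Between them, Cg2g001380, named peroxidase 2 and so outside the rule, had 1.28, 1.76 and 2.73 FPKM in Red and 0.68, 0.39 and 1.13 FPKM in White (log2 fold change 1.32, adjusted p = 0.0459). The next ID, Cg2g001400, also named peroxidase 2, had 1.15, 1.2 and 2.10 FPKM in White and was at 0 in every Red library (adjusted p = 0.00131), and no fold is given against a cultivar listed at 0. Within 4 successive IDs the level was thus called lower in Red for 1 gene and was above White in every Red library for 2 others, one of them past the adjusted p alone.

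Another pair of expressed neighbours had smaller differences. Cg5g039000, with the best hit AT1G14550, had 4.07, 4.36 and 4.26 FPKM in Red and 2.30, 4.62 and 6.48 FPKM in White (log2 fold change 0.041, SE 0.35, adjusted p = 0.934). Leaving out White replicate 1 turned its value to -0.36. Cg5g039010, with the best hit AT4G11290, had 2.79, 2.26 and 2.24 FPKM in Red and 2.62, 6.08 and 8.25 FPKM in White (log2 fold change -1.05, SE 0.40, adjusted p = 0.0674). In both genes the Red values were close together and White replicate 3 was highest.

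Of the last 3 expressed peroxidases, none passed. Cg3g023260, with the best hit AT1G44970 (PRX9, which acts on wall proteins in Arabidopsis anthers), had 12.6, 15.3 and 6.99 FPKM in Red and 10.1, 13.1 and 18.0 FPKM in White, and its log2 fold change of -0.27 (95% confidence interval -1.03 to 0.49) turned to 0.056 without Red replicate 3. Cg2g042930 had 0.49, 0.72 and 0.05 FPKM in Red and 0.78, 1.95 and 0.69 FPKM in White (log2 fold change -1.43, 95% confidence interval -3.17 to 0.31). Cg4g001070 had 0.87, 0.82 and 2.14 FPKM in Red and 1.28, 0.86 and 1.65 FPKM in White (log2 fold change -0.071, 95% confidence interval -1.10 to 0.96). These intervals are wide, so missing the thresholds does not show that the cultivars were alike.

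The monomers that peroxidases and laccases oxidise come from the phenylpropanoid pathway, and the expressed genes of this pathway moved in both directions. By best Arabidopsis hit, 60 genes matched the monolignol pathway list and 25 were expressed. Of these, 3 were called higher and 3 lower in Red, against 3.11% and 3.65% of all genes tested. The median log2 fold change of the 25 was 0.70. At the entry of the pathway, the phenylalanine ammonia-lyase gene Cg6g001740 had 2.96, 3.18 and 4.98 FPKM in Red and 0.12, 0 and 0.48 FPKM in White (log2 fold change 3.99, SE 0.65, adjusted p = 0.00267). Genes with the hit HCT, an acyltransferase of the pathway, were called in both directions: Cg4g024070 higher at 3.44, and Cg3g010740 at -3.43 and Cg2g025640 at -2.06 lower. Dirigent proteins, which guide the coupling of monolignol radicals, had 8 expressed genes of 59. Of these, 0 were called higher and 2 lower, against the same 3.11% and 3.65% of all genes. By limma at an unadjusted p under 0.05, 0 dirigent genes were higher and 5 lower in Red, against 27.2% and 26.6% of all genes tested. The most abundant, Cg2g001060, had 60.2, 83.7 and 73.7 FPKM in Red and 439, 319 and 403 FPKM in White (log2 fold change -2.41, SE 0.16, adjusted p = 8.24e-05). The other, CgUng005550, had 0.44, 0.65 and 0.77 FPKM in Red and 4.17, 2.42 and 3.23 FPKM in White (log2 fold change -2.22, SE 0.32, adjusted p = 0.00155).

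Hydrogen peroxide, the oxidant of the peroxidases, can be supplied by NADPH oxidases, superoxide dismutases, amine oxidases and some germin-like proteins. The list took genes of these families whether they act in the wall or inside the cell, so it does not describe supply in the wall alone. Of 43 genes on this list 25 were expressed, with 1 called higher and 2 lower, against 3.11% and 3.65% of all genes tested. The median log2 fold change of the 25 was -0.12. One listed gene, Cg3g012830, matched only through the word germination in its name. The NADPH oxidase gene Cg7g011630 had 0.19, 0.34 and 0.12 FPKM in Red and 9.72, 3.83 and 3.57 FPKM in White (log2 fold change -4.10, SE 0.48, adjusted p = 0.000688). The copper amine oxidase gene Cg5g008900 went the other way, with 75.7, 83.0 and 45.9 FPKM in Red and 9.86, 17.0 and 15.8 FPKM in White (log2 fold change 2.25, SE 0.28, adjusted p = 0.000893). The second lower gene was the germin-like Cg5g039500, at a log2 fold change of -2.60.

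**Figure D5:**
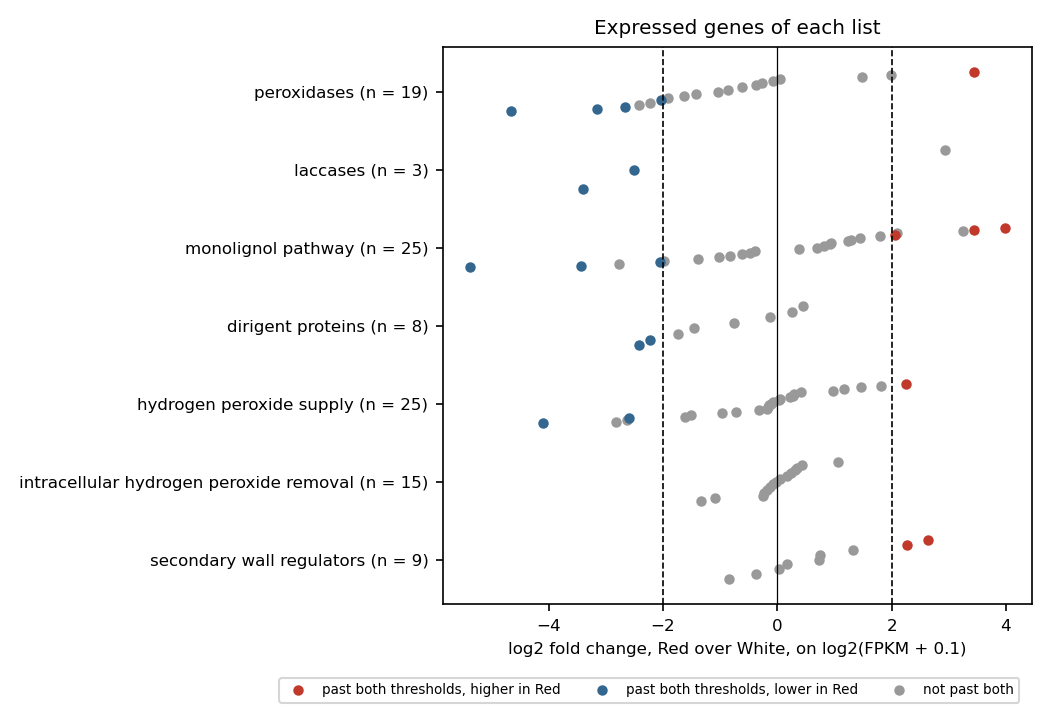
Log2 fold change, Red over White (x axis), of every expressed gene of each list (y axis, with the number of genes). Dashed lines mark the fold threshold, red points passed both thresholds with higher and blue points with lower expression in Red. The peroxidases have 1 red and 4 blue points, the laccases 2 blue, the dirigent proteins 2 blue, and the monolignol list 3 of each.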

How the data were processed

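The authors trimmed reads with Trimmomatic, aligned them with STAR (2.7.1a) to a C. maxima assembly, and deposited FPKM per gene and library from RSEM (1.3.1), with 2 decimals. The deposited table also holds a signal pooled over the 6 libraries, the authors' mean normalized count from featureCounts (2.0.1) and DESeq2, and their fold changes, errors and p-values, which were not used. The 6 libraries were assigned from their titles, with 0 value columns left out. Sequencing depth cannot be read from FPKM, so precision rests on 3 repeats per cultivar.

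Genes with a mean of at least 1 FPKM in Red or White were tested with limma 3.58.1 in R 4.3.3 on log2(FPKM + 0.1), with cultivar as the only term and a trended empirical Bayes variance, and p-values were adjusted over all genes (Benjamini-Hochberg). The procedure was run on simulated data whose changes all lay well past the fold threshold. Calls near that threshold were not probed, and the outcome is not given here. Alternatives were other pseudocounts, filters, scalings, moderation and thresholds, a replicate block, and leaving out each library. Members and lists were chosen with earlier results of these data known. Named were called members, the 6 peroxidases and 4 laccases of highest mean, members with a known role, expressed neighbours, and up to 4 called genes per other list. The other members, the marker genes and Cg2g025640 were named after their values were seen. Pathway lists were matched by best Arabidopsis hit or name. Whether counting used strand is not given in the sources used here. No genome was used, so positions and sequences are not given. One gene of the monolignol list is not reported here.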

Additional observations from a re-analysis of the deposited data

How the results depend on the processing

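Over 19 alternative settings, 2 of the 7 called members, Cg2g008860 and Cg6g002350, kept their call in each, Cg3g018770 (16 settings) and Cg6g005910 (18) could not be tested in all, and no expressed member changed direction except when a library was left out: Cg2g001370 (-0.81 to 0.19, positive without White replicate 3), Cg3g023260 (-0.50 to 0.056, positive without Red replicate 3), Cg5g039000 (-0.36 to 0.36, negative without White replicate 1) and Cg4g001070 (-0.49 to 0.16, positive without Red replicate 1, Red replicate 2 or White replicate 3). The adjusted p alone and the looser thresholds used the main fit, so a called gene could not lose its call there. Peroxidases called higher numbered 2 instead of 1 with a pseudocount of 0.01, quantile normalization or the adjusted p alone, and 3 at a log2 fold change of 1 and adjusted p of 0.05. Peroxidases called lower numbered 2 instead of 4 with a pseudocount of 1, and 8 at the looser thresholds. Laccases called lower numbered 1 instead of 2 with a pseudocount of 0.01 or 0.5 or with a mean of 1 FPKM over all libraries, and 0 with a pseudocount of 1, and 1 laccase was called higher at the looser thresholds. Of the monolignol list, 0 genes were called higher and 1 lower with a pseudocount of 1, 5 and 7 with the adjusted p alone, and 8 and 7 at the looser thresholds. Of the hydrogen peroxide supply list these were 4 and 5, and 4 and 4. The adjusted p alone was passed by 13.4% of all genes as higher and 14.1% as lower. With each library left out, the counts were 1 to 2 and 2 to 4 for peroxidases higher and lower, 0 to 1 and 0 to 2 for laccases, 1 to 3 and 2 to 3 for the monolignol list, and 1 to 2 and 2 to 3 for the supply list. The causes were not tested.

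Replicate numbers did not pair the libraries: deviations of same-numbered libraries correlated at 0.000385, 0.0309 and -0.0446 across genes. With a replicate block in limma 0 laccases were called lower, Cg2g018020 passed (adjusted p = 0.00335, within 0.00335 to 0.0442 over the 19 settings), and Cg3g018770 did not (adjusted p = 0.0233). FPKM keep no depth, and 3 libraries a cultivar set the precision.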

Other observations

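Ascorbate peroxidases, catalases, glutathione peroxidases and peroxiredoxins remove hydrogen peroxide inside the cell and are not class III peroxidases. Of 21 listed genes 15 were expressed, and by limma 0 were called in either direction at both thresholds. Past the adjusted p alone 2 were higher and 2 lower, against 13.4% and 14.1% of all genes tested. At an unadjusted p under 0.05, 4 were higher and 2 lower, against 27.2% and 26.6% of all genes tested. Among them, the ascorbate peroxidase gene Cg6g002810 had 385, 307 and 330 FPKM in Red and 193, 151 and 148 FPKM in White (log2 fold change 1.06, SE 0.13, adjusted p = 0.000955), and the catalase gene Cg3g025260 had 108, 80.9 and 124 FPKM in Red and 199, 218 and 242 FPKM in White (log2 fold change -1.09, SE 0.16, adjusted p = 0.00187). The glutathione peroxidase gene Cg5g002990 was abundant and even, with 863 to 970 FPKM over the 6 libraries and a log2 fold change of -0.030 (SE 0.087).

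Of the 30 genes matched to regulators of secondary walls, 9 were expressed. Both thresholds were passed by 2, both higher in Red, against 3.11% of all genes tested. They were Cg9g028980, named myb domain protein 58, with 2.94, 5.68 and 2.42 FPKM in Red and 0.23, 0.87 and 0.47 FPKM in White, and Cg5g013190, named myb domain protein 61, with 10.9, 16.9 and 6.89 FPKM against 1.48, 3.63 and 1.88 FPKM. In Arabidopsis MYB58 activates lignin genes. The median log2 fold change of the 9 genes was 0.72, which was the value of Cg2g033910, with the hit MYB4. The list was not split into activators and repressors, so this median does not describe lignin activators.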
